A study of Mus musculus with 18 samples.

Results

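Transcripts of antioxidant enzymes, metallothioneins and the thioredoxin-binding protein Txnip were examined in mouse pancreatic islets. The group was fixed by gene symbol as Sod1, Sod2, Gpx3, Gpx4, Prdx1, Prdx2, Txn1, Mt1, Mt2 and Txnip. Of these 10 genes, 9 are among the 10509 genes of the deposited table, and Prdx1 was not analysed here. All 9 passed the filter on low values, which asked for a log2 value above 0 in at least 8 libraries and removed 0 of all genes.

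Islets came from mice labelled NRK1 knockout under Ins1Cre and from mice labelled WT, and both genotypes were fed a high-fat diet for 12 weeks. NRK1, encoded by Nmrk1, phosphorylates nicotinamide riboside, a step on a salvage route to NAD. The Ins1 promoter drives Cre in beta cells, so the other islet cell types of a knockout mouse keep the gene, and whole islets were sequenced. There were 10 knockout libraries, called KO 1 to KO 10, and 8 WT libraries, called WT 1 to WT 8. Sex, age, strain and whether WT mice carried Cre or a floxed allele are not given in the labels used here.

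The libraries read transcript 3′ ends, so a read stands for a transcript end and values are not divided by transcript length. Each value is the log2 of CPM, the read count scaled to the size of the library, plus a floor of 0.562 CPM, so a gene without a read stands at -0.83. Libraries held 2831137 to 4303680 reads over the listed genes, and the median gene had 60 reads. The number of listed genes without a read ran from 33 to 346 and was highest in WT 7, KO 2 and KO 3, at 346, 320 and 227. Nmrk1 itself stood at 1.99 ± 0.49 (SD, n = 10) in knockout and 2.01 ± 0.92 (SD, n = 8) in WT, and 3′ end reads do not check the deletion, because the deleted part is not given. Of 8 beta cell markers, 7 were measured, with a mean log2 value of 11.66 ± 0.20 (SD, n = 10) in knockout and 11.75 ± 0.11 (SD, n = 8) in WT. The 7 include Ins1, whose promoter drives Cre, with a log2 difference of -0.68, knockout minus WT. Of the 7, 2 had a higher and 5 a lower mean in knockout, while 49.6% of all genes were higher.

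Superoxide dismutases turn superoxide into hydrogen peroxide, Sod1 in the cytosol and Sod2 in the mitochondrial matrix. Peroxide is then removed by catalase, by glutathione peroxidases and by peroxiredoxins, which are reduced again by thioredoxin. Beta cells are known for low catalase and low glutathione peroxidase and for their reliance on the peroxiredoxin and thioredoxin system. Metallothioneins are small cysteine-rich proteins that bind zinc and copper, and their genes are induced by zinc through the factor MTF1 and by glucocorticoids. Txnip binds and inhibits thioredoxin, and in beta cells it is known as a gene strongly induced by glucose through the factors ChREBP and MondoA.

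The promoter windows of these genes are shown because both kinds of induction are read from short sequence elements in them. Sequences are from RefSeq on GRCm38.p6, written 5′ to 3′, in windows of 250 bases before to 50 bases after an annotated start of each gene. A carbohydrate response element was searched on both strands as the letters CACGNG repeated after a gap of any 5 bases, and 16 of 32851 windows, or 0.0487%, held it. Txnip (chromosome 3, 96557957 to 96561857) was among them, with the element at 96557872 to 96557888, from base -85 to base -69. The 250 bases before its start, chr3:96557707-96557956 on the plus strand, are printed with that match in capitals.
Txnip: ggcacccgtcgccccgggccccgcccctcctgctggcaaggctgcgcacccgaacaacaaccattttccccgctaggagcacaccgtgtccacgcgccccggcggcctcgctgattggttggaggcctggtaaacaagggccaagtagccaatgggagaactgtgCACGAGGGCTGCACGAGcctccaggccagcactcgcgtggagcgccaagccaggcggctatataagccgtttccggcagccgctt

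Metal response elements, the sites of MTF1, were searched on both strands as TGCACNC or TGCGCNC. At least 1 match was in 25.7% of all windows and at least 3 matches in 1.97%. The Mt1 window held 3 matches and the Mt2 window held 4, and no match overlapped a match of another motif searched. The Txnip window held 1, which is not marked in the bases above, and the other windows of the group held none. Mt1 (chromosome 8, 94178883 to 94180327) and Mt2 (chromosome 8, 94172618 to 94173567) are neighbours on the plus strand, with 5315 bases between the end of Mt2 and the start of Mt1. The start used for the Mt1 window was base 94179089, which lies inside these gene coordinates. Counted from it, the Mt1 stretch with 1 match spans bases -34 to -5, and that with 2 matches spans bases 1 to 30. The Mt1 and Mt2 matches are shown in stretches of 30 bases in capitals. A match on the minus strand appears as its reverse complement, read from the plus strand.
Mt1, chr8:94179055-94179084: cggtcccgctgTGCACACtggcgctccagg
Mt1, chr8:94179089-94179118: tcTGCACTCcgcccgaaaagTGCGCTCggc
Mt2, chr8:94172384-94172413: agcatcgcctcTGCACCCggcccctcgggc
Mt2, chr8:94172479-94172508: cgcagacccttTGCGCTCagctcctttgct
Mt2, chr8:94172557-94172586: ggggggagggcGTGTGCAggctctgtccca
Mt2, chr8:94172611-94172640: gaattcgggtcGTGCGCAggcccaggggcg

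The antioxidant response element, the site of the factor NRF2, was searched as TGACNNNGC or TGAGNNNGC on both strands and was in 27.8% of windows. The Prdx1 window held 2 matches, those of Sod1 and Mt2 held 1 each, and the other windows of the group held none of these letters. A match is a description of the sequence and does not show that a factor was bound in these islets.

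By assigned reads, the metallothioneins stood highest in the group and Gpx4 lowest. Mean log2 values over the 18 libraries were 10.43 for Mt1, 9.36 for Mt2, 8.99 for Sod1, 8.61 for Gpx3, 6.74 for Prdx2, 5.21 for Txn1, 4.95 for Sod2, 4.13 for Txnip and 1.25 for Gpx4. Mt1 stood above 99.8% of all listed genes, Sod1 above 99.3%, Prdx2 above 91.0%, Txn1 above 71.7%, Txnip above 50.8% and Gpx4 above 5.88%. On the linear scale these means correspond to 1376 CPM for Mt1, 506 CPM for Sod1 and 16.9 CPM for Txnip.

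Neighbours in this order did not all differ beyond the spread between libraries. Mt1 exceeded Mt2 in 18 of 18 libraries, by 1.06 ± 0.23 (SD, n = 18) on the log2 scale. Gpx3 exceeded Prdx2, Prdx2 exceeded Txn1, and Txnip exceeded Gpx4, each in 18 of 18 libraries. Mt2 and Sod1 changed places, with Mt2 higher in 12 libraries, and so did Sod1 and Gpx3, with Sod1 higher in 11. Txn1 was above Sod2 in 12 libraries and Sod2 above Txnip in 15.

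Reads assigned to these 2 superoxide dismutases were mostly those of the cytosolic enzyme. Sod1 (chromosome 16, 90220762 to 90226333) exceeded Sod2 (chromosome 17, 13007839 to 13018119) in 18 of 18 libraries, by a mean of 4.03 ± 0.62 (SD, n = 18) on the log2 scale, which is 16.4-fold. The gap was 3.87 ± 0.51 (SD, n = 10) in knockout and 4.25 ± 0.71 (SD, n = 8) in WT. Its difference of -0.38 gave an exact permutation p of 0.210, two-sided, over all 43758 regroupings of the samples. The 3′ ends of both genes match other genes, as given below, and the treatment of such reads is not known. The size of the gap is therefore uncertain.

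Among the peroxide-removing enzymes, Gpx3, which encodes a secreted glutathione peroxidase, stood high, and few reads were assigned to catalase and Gpx4. The level of Gpx4 is uncertain, as given below. Values differed widely within the peroxiredoxins. Genes outside the group were not searched for shared 3′ ends, so the same limit may hold for them. Gpx3 (chromosome 11, 54902854 to 54910387) had 694 to 2183 reads per library. Prdx2 (chromosome 8, 84969622 to 84974811), a cytosolic peroxiredoxin, had 139 to 533 reads. In the wider list of 33 antioxidant genes, of which 29 were measured, Prdx6, which encodes a peroxiredoxin reduced by glutathione, had a mean log2 value of 8.003. Prdx5 stood at 5.84, Prdx4, the peroxiredoxin of the endoplasmic reticulum, at 2.82 and Prdx3, that of mitochondria, at 2.03, with 1 to 36 reads. Gpx1, the cytosolic glutathione peroxidase, stood at 5.69. Cat, the gene of catalase, stood at 1.92, above 14.0% of listed genes, with 2 to 34 reads per library.

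The thioredoxin branch was read in Txn1 and its partners. Txn1 (chromosome 4, 57943373 to 57956411, minus strand), the cytosolic thioredoxin, had 40 to 198 reads per library. Txnrd1, the reductase that recharges it, had a mean log2 value of 7.38, and Txn2, the mitochondrial thioredoxin, 6.14. Srxn1, the sulfiredoxin that repairs overoxidized peroxiredoxins, stood at 6.58. The NRF2 gene Nfe2l2 stood at 5.85 and its inhibitor Keap1 at 6.89.

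Gpx4 (chromosome 10, 80047166 to 80056439) encodes the glutathione peroxidase that reduces lipid peroxides in membranes. Only 0 to 16 reads per library were assigned to it. WT 1 had 0 reads, which allows up to 0.724 CPM at 3 reads, for counting error alone. The last 200 bases of its transcripts match Gpx4-ps2 at up to 100%, over up to 200 bases, in the GENCODE M21 transcripts. Here and below, the highest identity and the longest match were taken separately and may come from different matches. The sources used here do not give whether reads matching both were dropped, so the level of Gpx4 is uncertain.

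Other members share 3′ ends with further genes in the same search, which kept matches of at least 95% identity over at least 50 bases. Prdx2 matched Tdpx-ps1 at up to 98.0% over up to 200 bases, and Sod1 matched Gm8566 at up to 98.4% over up to 128 bases. Sod2 matched 7 other genes, at up to 97.7%. Prdx1 (chromosome 4, 116685599 to 116700000) matched Gm21399 and Gm7204 at up to 99.0% over up to 200 bases. Gpx3, Txn1, Mt1, Mt2 and Txnip had no such match. Scaf4 overlaps Sod1, and Rnaseh2a and Junb overlap Prdx2, on the other strand, and the strand setting of the read counting is not given.

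**Figure D1:**
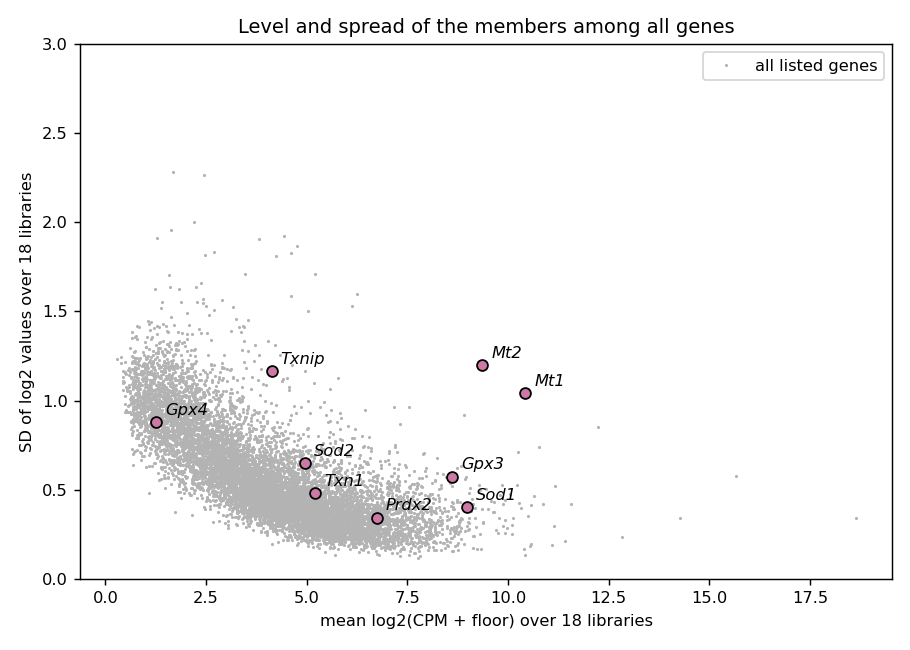
Mean log2(CPM + floor) over 18 libraries (horizontal) against the SD of the log2 values over the same libraries (vertical) for all 10509 listed genes (grey) and the 9 members (labelled points). Mt1, Mt2 and Txnip lie above nearly all genes of similar level, at SDs of 1.04, 1.20 and 1.16.

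Over all 18 libraries the metallothioneins and Txnip had the largest spread of the group. The SD of the log2 values was 1.20 for Mt2, 1.16 for Txnip and 1.04 for Mt1. With genes split into bins of 10% by mean level, among the 1050 genes of the highest bin, Mt2 had the largest SD and Mt1 ranked 2 from the top. Txnip ranked 7 from the top among the 1051 genes in its own bin.

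These ranks held in part without KO 2, the library with the lowest metallothionein values. Without it, Mt2 ranked 5 at an SD of 0.85 and Mt1 ranked 10 at an SD of 0.68, still among the 1050 genes. Enzymes then lay near them, with SDs of 0.86 for Gpx4, which has few reads, 0.59 for Sod2 and 0.56 for Gpx3. Gpx3 ranked 28 among the same 1050 genes without KO 2. Without WT 7, KO 2 and KO 3, Txnip ranked 5, Mt2 4 and Mt1 9. The ratio of the highest to the lowest library was 28.4-fold for Mt2, 21.4-fold for Mt1 and 17.8-fold for Txnip.

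The enzymes varied less over all 18 libraries. The ratio of the highest to the lowest library was 2.76-fold for Prdx2, 2.98-fold for Sod1, 4.07-fold for Txn1, 4.17-fold for Sod2 and 4.25-fold for Gpx3. The SD of Prdx2, 0.34, exceeded that of 57.0% of genes in its bin, and the SD of Gpx3, 0.57, exceeded that of 95.4%. For Sod2 the SD of 0.65 exceeded that of 94.8% of genes in its bin. For Gpx4 the ratio of 12.7-fold rests on the floor in WT 1, and its SD of 0.88 exceeded that of only 27.1% of genes in its bin.

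Mt1 values in knockout were lowest at 7.22, had a median of 10.77 and were highest at 11.64, and in WT they were 9.30, 10.26 and 11.54. KO 2 was the lowest of all libraries, and the next knockout library lay at 10.18. Mt2 values were 5.87, 9.95 and 10.69 in knockout and 8.09, 9.00 and 10.55 in WT. KO 5 was highest and KO 2 lowest in knockout for both genes, and WT 5 was highest and WT 1 lowest in WT for both.

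Txnip values in knockout were lowest at 2.41, had a median of 4.58 and were highest at 6.19, and in WT they were 2.04, 3.87 and 4.99. The 4 knockout libraries KO 4, KO 9, KO 1 and KO 6, at 6.19, 5.57, 5.46 and 5.35, lay above every WT library, and KO 7 lay near the bottom at 2.41, so the groups overlapped. In reads, WT 6 had 12 and KO 4 had 275, the fewest and the most.

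**Figure D2:**
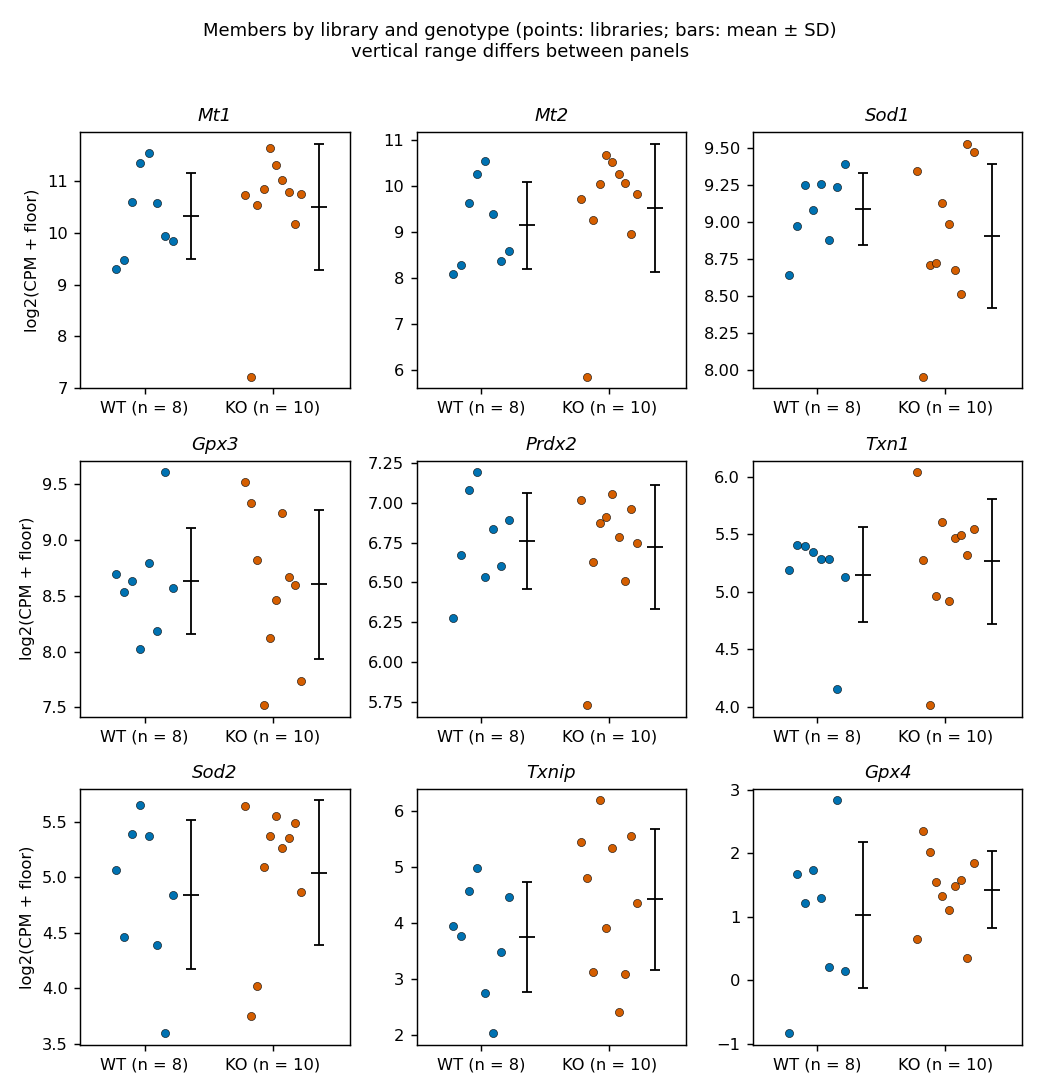
Log2(CPM + floor) of each member in the 8 WT and 10 knockout libraries (points), with the mean and SD of each group (bars), and vertical ranges that differ between panels. The groups overlap in all 9 panels, and KO 2 lies apart at the bottom for Mt1 (7.22) and Mt2 (5.87).

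Several members were read at their extremes in WT 7, KO 2 and KO 3, which held the most genes without a read. Sod2 was lowest in them, at 3.59, 3.74 and 4.02, and all other libraries lay at 4.39 or above. Gpx4 was highest in the same libraries, at 2.83, 2.35 and 2.03, and Gpx3 was highest of all in WT 7, at 9.61. Txn1 was lowest in KO 3 and WT 7, at 4.02 and 4.15. KO 2 was lowest of the 18 libraries in Sod1, Prdx2, Mt1 and Mt2.

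Over the 18 libraries the log2 number of genes without a read correlated with Sod2 at a Pearson r of -0.81 (rho -0.73, permutation p = 5e-05, adjusted p = 0.00495). For Prdx2 r was -0.73 (rho -0.79, permutation p = 0.00059, adjusted p = 0.0292), and for Mt2 r was -0.70 (rho -0.56, permutation p = 0.00133, adjusted p = 0.0439). These were the 3 relations that passed among 99 computed between 9 members and 11 library measures, with adjustment over the 99. The share of all genes that follow the number of genes without a read was not computed. The relations, and the extremes above, are therefore not shown to be particular to these members. Without the 2 libraries farthest from the median of the member, r was -0.61 for Sod2, -0.64 for Prdx2 and -0.56 for Mt2. The part of library quality in the values below was not tested beyond leaving these libraries out.

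Mt1 and Mt2 moved together across the islet samples. Their Pearson r over the 18 libraries was 0.99 and Spearman rho 0.99, with a permutation p of 1e-05, the smallest that 100000 permutations can give, and an adjusted p of 0.00036 over the 36 pairs of members. The value was 0.99 within knockout (n = 10), 0.99 within WT (n = 8) and 0.97 without KO 2 and WT 1. The Mt1 to Mt2 gap on the log2 scale was 0.97 ± 0.23 (SD, n = 10) in knockout and 1.18 ± 0.19 (SD, n = 8) in WT, and the difference of -0.21 gave an exact permutation p of 0.0583 (0.117 adjusted over this gap and that of Sod1 to Sod2).

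Of the 36 pairs, 8 passed by Pearson r and 4 by Spearman rho, and 9 had an unadjusted Pearson permutation p under 0.05. Over all other genes, 19.2% had such an unadjusted relation to Mt1 and 14.6% to Txnip. The share over all pairs of genes was not computed, so these counts are not shown to be particular to the group. Sod2 and Mt2 had r of 0.70 (rho 0.65, adjusted permutation p = 0.0202), and 0.51 without KO 2 and WT 7. Prdx2 and Mt1 had r of 0.76 (rho 0.43, adjusted permutation p = 0.0202), which fell to 0.23 without KO 2 and WT 1, so that relation rests on those libraries. Sod1 and Prdx2 had r of 0.70 (rho 0.53, adjusted permutation p = 0.0202), and 0.36 without KO 2 and KO 8. Without KO 2 alone, 2 pairs passed, Mt1 with Mt2 and Sod2 with Txn1. Without WT 7, KO 2 and KO 3, only Mt1 with Mt2 passed.

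Mt1 was then set beside the zinc and glucocorticoid genes, in 16 relations chosen after the spread of Mt1 had been seen. Slc39a7, which encodes a zinc channel of the secretory pathway, had r of 0.73 (rho 0.72, adjusted permutation p = 0.00624), and 0.52 without KO 2 and WT 1. Slc30a1, the zinc exporter of the plasma membrane and a known MTF1 target, had r of 0.69 (rho 0.52, adjusted permutation p = 0.0145), and 0.41 without those libraries. Slc39a10, a zinc importer, had r of -0.60 (rho -0.62, adjusted permutation p = 0.0305), and -0.56 without them.

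Among the glucocorticoid-responsive genes, Per1, a clock gene, had r of 0.60 with Mt1 (rho 0.63, adjusted permutation p = 0.0305), and 0.47 without KO 2 and WT 1. Cebpd, a transcription factor of the acute-phase response, had r of 0.57 (rho 0.72, adjusted permutation p = 0.0314), and 0.52 without them. These 5 relations passed by Pearson r, and 5 passed by rho, with Slc30a7 in place of Slc30a1. Without KO 2 none of the 16 passed by Pearson r, and none passed without WT 7, KO 2 and KO 3. Over all other genes, 19.2% had a relation to Mt1 at an unadjusted permutation p under 0.05, and 11.5% had a positive one.

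**Figure D3:**
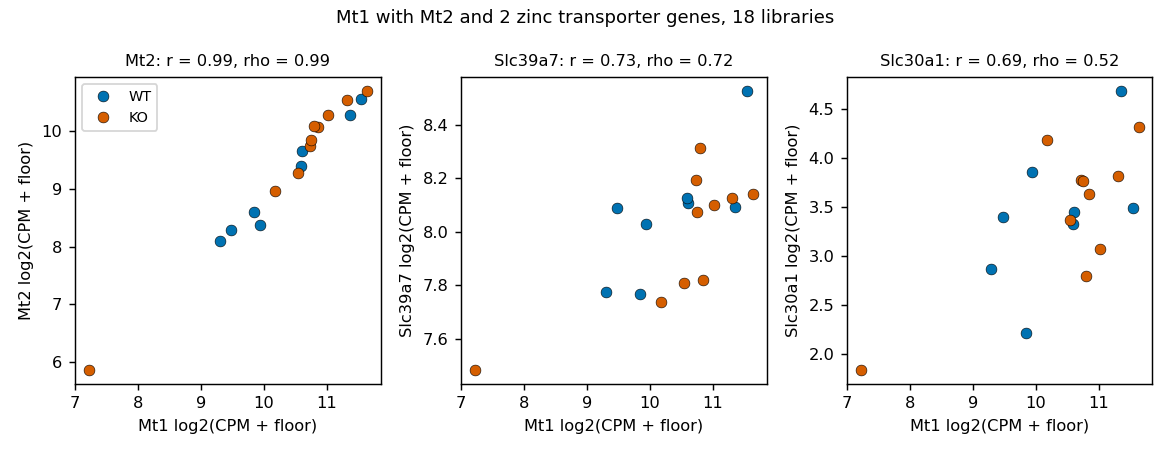
Mt1 (horizontal) against Mt2, Slc39a7 and Slc30a1 (vertical), all as log2(CPM + floor), in 8 WT and 10 knockout libraries (1 point each). Mt2 follows Mt1 over the whole range (r = 0.99), while r is 0.73 for Slc39a7 and 0.69 for Slc30a1, or 0.52 and 0.41 without KO 2 and WT 1.

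The animal numbers in the titles form runs, and 3 runs of 4 libraries held both genotypes. Mt1 was lowest in the first run in both genotypes, with means of 8.88 in 2 knockout and 9.39 in 2 WT libraries. Those knockout libraries were KO 2, at 7.22, and KO 3, at 10.54, so the knockout mean of that run leans on KO 2. In the second run the means were 11.24 and 10.98, and in the third 11.04 in 3 knockout libraries and 11.54 in 1 WT library. The labels do not say that a run is a batch, and 4 libraries are too few for a correlation within a run.

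Txnip was compared with 17 measured genes of a list of 20 glucose-related genes. Of these relations 8 were positive and 9 negative, and none passed by Pearson r after adjustment (0.0%), while 2 had an unadjusted permutation p under 0.05. Over all other genes, 14.6% had such an unadjusted relation to Txnip, and 7.32% had a positive one. The highest r was with Rgs16, a regulator of G protein signalling, and the lowest with Fasn, the gene of fatty acid synthase and a known ChREBP target in liver.

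Rgs16 had r of 0.59 with Txnip (permutation p = 0.00800, adjusted p = 0.136) and rho of 0.81 (permutation p = 0.00011, adjusted p = 0.00187), so the relation passed by rank and not by Pearson r. Its r was 0.64 within knockout (n = 10), 0.45 within WT (n = 8) and 0.57 without KO 4 and WT 6. Rgs16 had 0 to 51 reads per library, with 0 in KO 3 and WT 7, which allows up to 1.17 CPM and 1.23 CPM at 3 reads. Without WT 7, KO 2 and KO 3, r was 0.76 (adjusted permutation p = 0.00646). Of all other genes, 2.08% had a higher r with Txnip.

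Fasn had r of -0.56 with Txnip (rho -0.59, permutation p = 0.0171, adjusted p = 0.146). Pklr, the liver-type pyruvate kinase gene, had r of 0.47 (permutation p = 0.0514) and Klf10, a glucose-induced transcription factor gene, 0.40 (permutation p = 0.0989). Mlxipl, which encodes ChREBP, also had r of 0.40 (permutation p = 0.105). Mlx, the partner of ChREBP, had r of -0.40 (permutation p = 0.103), and Arrdc4, a relative of Txnip induced by the same factors, had r of -0.34 (permutation p = 0.176). Both had a negative r, and a p above the threshold does not show that a relation is absent.

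Relations of the members to scores of cell type markers did not pass the adjustment over the 99. The smallest p was that of Sod2 with the score of 7 beta cell markers, at r of -0.66 (rho -0.63, permutation p = 0.00247, adjusted p = 0.0503), and r was -0.57 without KO 2 and WT 7. The score of 7 ductal markers had r of 0.59 with Sod1 (rho 0.50, permutation p = 0.00903, adjusted p = 0.112), at 0.75 within knockout and -0.05 within WT. With Prdx2 it had r of 0.58 (rho 0.60, permutation p = 0.00769, adjusted p = 0.109). The mean log2 value of 13 acinar markers ran from 1.39 to 6.53 in knockout and from 1.66 to 6.34 in WT. Its r with Txnip was 0.58 (rho 0.55, permutation p = 0.0112, adjusted p = 0.123), and its r with Gpx3 was -0.55 (rho -0.61, permutation p = 0.0183, adjusted p = 0.174). For the 6 measured alpha cell markers the mean value had r of -0.51 with Txnip (rho -0.44, permutation p = 0.0303, adjusted p = 0.214). Within genotypes this r was -0.73 in knockout (n = 10) and 0.39 in WT (n = 8), and the difference between them was not tested. In whole islets, fewer cells of a type and less RNA per cell cannot be told apart.

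**Figure D4:**
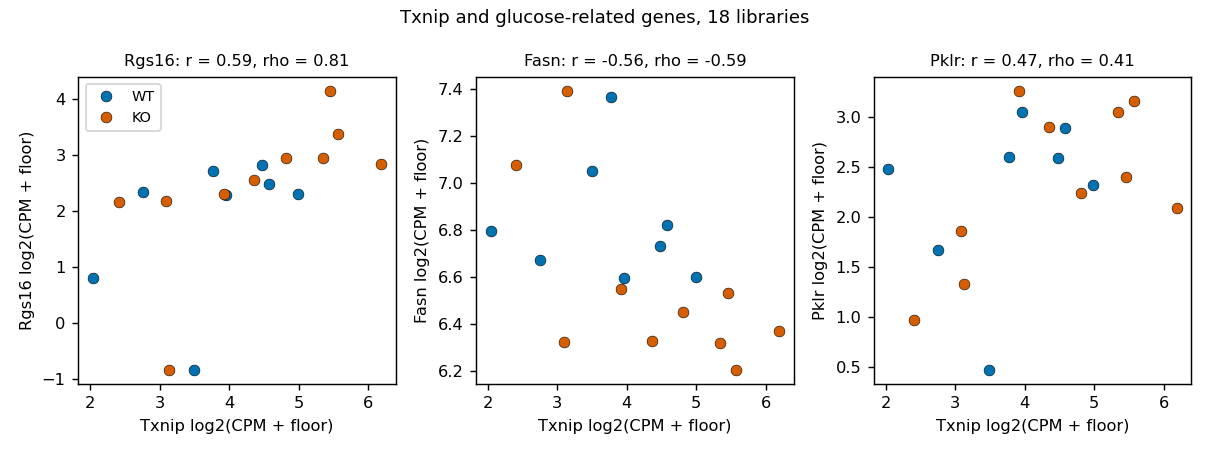
Txnip (horizontal) against Rgs16, Fasn and Pklr (vertical), all as log2(CPM + floor), in 8 WT and 10 knockout libraries (1 point each). Rgs16 ranks with Txnip (rho = 0.81, adjusted permutation p = 0.00187), with 2 libraries at 0 reads, and Fasn has a rho of -0.59 that did not pass the adjustment.

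Between genotypes no member passed the test, and neither did any other gene. The limma test over all 10509 genes called 0 genes at an adjusted p under 0.05 (0.0%), and the exact permutation test also called 0 (0.0%). At an unadjusted p under 0.05, limma listed 567 genes (5.4%), 334 higher (3.18%) and 233 lower (2.22%) in knockout, and none of the 9 members was among them. The exact test listed 573 (5.45%). The groups overlapped for all 9 members, and 1 of all genes (0.00952%) had groups that did not. Of the members, 6 had a higher and 3 a lower mean in knockout, against 49.6% of all genes higher, and their median log2 difference was 0.17 against -0.00255 over all genes.

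Txnip had the largest difference of the members, at 4.43 ± 1.26 (SD, n = 10) in knockout and 3.76 ± 0.98 (SD, n = 8) in WT. The log2 difference was 0.67 (SE 0.44, 95% interval -0.22 to 1.57), which is 1.59-fold, with a limma adjusted p of 0.945 and an exact permutation p of 0.232. Of the knockout libraries, 7 of 10 lay above the WT mean and 4 above the highest WT library. In the 3 runs of animal numbers the knockout was higher by 0.11, 0.27 and 0.86, the last from 3 knockout libraries and 1 WT library. Over the 12 libraries of these runs the difference was 0.12 without and 0.37 with a term for the run.

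Mt1 stood at 10.50 ± 1.22 (SD, n = 10) in knockout and 10.33 ± 0.83 (SD, n = 8) in WT. The difference was 0.17 (SE 0.40, 95% interval -0.64 to 0.98, limma adjusted p = 0.985). Mt2 stood at 9.53 ± 1.39 (SD, n = 10) and 9.15 ± 0.95 (SD, n = 8), differing by 0.38 (SE 0.45, 95% interval -0.54 to 1.29, limma adjusted p = 0.972). Both values turned on KO 2, and without it the differences were 0.54 for Mt1 and 0.79 for Mt2. With a term for the run they were -0.23 and -0.15 over 12 libraries.

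Sod1 was 8.90 ± 0.49 (SD, n = 10) in knockout and 9.09 ± 0.25 (SD, n = 8) in WT. The difference was -0.18 (95% interval -0.54 to 0.17, limma adjusted p = 0.955). Sod1 was lower in knockout in each run, with differences of -0.48, -0.24 and -0.53. The first run held KO 2, and the third held only 1 WT library. Over those 12 libraries the difference was -0.37 without and -0.41 with a run term (limma unadjusted p = 0.0189, adjusted p = 0.502). It was -0.08 without KO 2 and -0.02 without WT 7, KO 2 and KO 3. Sod2 was 5.04 ± 0.65 (SD, n = 10) and 4.84 ± 0.67 (SD, n = 8), differing by 0.19 (95% interval -0.35 to 0.74, limma adjusted p = 0.974). Within the runs the Sod2 difference was -0.88, -0.29 and 0.02, so its direction was not kept.

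For Gpx3, Prdx2 and Txn1 the log2 differences between genotypes were -0.03, -0.04 and 0.11. Gpx3 was 8.60 ± 0.67 (SD, n = 10) in knockout and 8.63 ± 0.47 (SD, n = 8) in WT, and Prdx2 was 6.72 ± 0.39 and 6.76 ± 0.30. The 95% interval of the log2 difference was -0.50 to 0.45 for Gpx3, -0.37 to 0.29 for Prdx2 and -0.32 to 0.55 for Txn1. Gpx4, with its few reads, was 1.43 ± 0.61 (SD, n = 10) in knockout and 1.04 ± 1.15 (SD, n = 8) in WT. Its difference of 0.39 (95% interval -0.49 to 1.28) was the second largest of the members, and it was 0.75 with voom on the recovered reads, 0.65 with a run term and 0.13 without WT 1. The limma adjusted p was 0.972 or higher for these 4 genes.

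**Figure D5:**
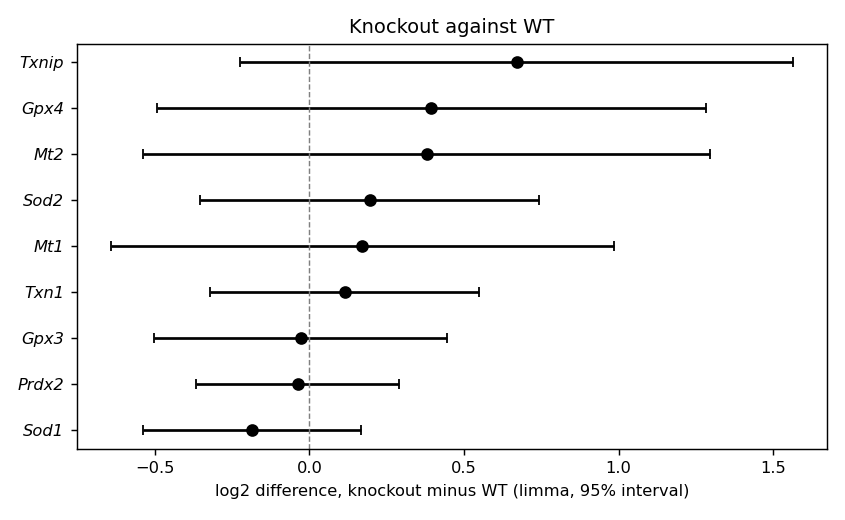
Log2 difference of each member, knockout minus WT, with its 95% interval from the limma fit (10 knockout and 8 WT libraries). The interval of every member crosses 0, from Sod1 at -0.18 to Txnip at 0.67.

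The lists around the members also held no gene that passed. Of 29 further antioxidant genes, 11 were higher and 18 lower in knockout, with a median log2 difference of -0.02. The smallest p values were those of Txnrd3, a thioredoxin reductase, at -0.82 (SE 0.44), Ccs, the copper chaperone of Sod1, at -0.32, Nfe2l2 at -0.20 and the glutaredoxin Glrx at -0.33. Cat differed by -0.02 (SE 0.42).

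Of 17 glucose genes, 8 were higher and 9 lower, with a median of -0.09, and among those of smallest p were Fasn at -0.27, Ucn3, a peptide of mature beta cells, at -0.28, and Mlxip, which encodes MondoA, at 0.36. Of 9 zinc and metal genes, 4 were higher and 5 lower, with a median of -0.01. Slc30a8, the zinc transporter of insulin granules, differed by -0.24, Slc39a6 by 0.16, Slc30a7 by 0.29 and Mtf1 by 0.13.

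Of 9 listed glucocorticoid-responsive genes, 7 were measured. All 7 had a higher mean in knockout, against 49.6% of all genes, with a median of 0.14. Dusp1, a phosphatase of MAP kinases, differed by 0.68 (SE 0.30, unadjusted limma p = 0.0320, adjusted p = 0.925). Cebpd differed by 0.81 (SE 0.40), Fkbp5 by 0.23 and the receptor gene Nr3c1 by 0.14. The rest lay near 0, with Per1 at 0.09 (SE 0.25), Sgk1 at 0.06 (SE 0.20) and Tsc22d3 at 0.009 (SE 0.23). Beside these values, the alpha cell score was 5.88 ± 0.56 (SD, n = 10) in knockout and 6.37 ± 0.30 (SD, n = 8) in WT, with an exact permutation p of 0.0404. The score of 4 adipocyte markers was 4.22 ± 0.54 and 3.68 ± 0.34, with an exact permutation p of 0.0255. Adjusted over 10 marker lists, both had an exact permutation p of 0.202. Their part in the members' values was not tested.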

How the data were processed

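RNA of whole islets was read with a 3′ end kit in 18 libraries. Per the submitters' processing notes the tools were STAR 2.5.2, HTSeq 0.6.1 and edgeR on GRCm38; the annotation, strand setting and treatment of reads with several matches are stated nowhere in these sources. The deposited values are log2 normalized expression made by the authors. Subtracting the common floor of 0.562 CPM gave whole reads for 100% of values in every library (tolerance 0.05 reads), with 1 read worth 0.238 to 0.411 CPM. Fold changes are on this log2(CPM + floor) scale, which understates low genes. No column belongs to another sample (0).

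Genotypes were compared with limma 3.58.1 in R 4.3.3 (empirical Bayes with a variance trend, two-sided, Benjamini-Hochberg over all genes), and by exact permutation of the difference of means over 43758 regroupings. Correlations used 100000 permutations, adjusted within each family. The limma, exact and correlation steps were tested on simulated data. The 73 same-group pairs of libraries differed by more than sampling noise (chi-square per degree of freedom 6.22 to 44.3 over genes with at least 20 reads per pair), so each counted as 1 sample. The labels do not say more of the replicates than an animal number each, so p-values measure the spread between these samples. Read limits cover counting error only.

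The members and lists were chosen with earlier results of these data known. Pairs of members, Mt1 relations and runs of animal numbers were added after values had been seen. Named genes were all members, up to 4 genes of smallest p in each list, the 3 highest and 3 lowest glucose genes by r with Txnip, the 5 genes most like Txnip and Mt1, and markers that moved with a member. Levels of Prdx3, Prdx4, Prdx5, Prdx6, Gpx1, Cat, Txnrd1, Txn2, Srxn1, Keap1 and Mlxipl were added for their roles. A gene that this rule names in the glucose list is not reported here. Alternatives changed the filter, pseudocount, scaling, variance model, test, covariate and samples. Gene names and coordinates came from RefSeq on GRCm38.p6, where 10508 of 10509 identifiers were found; 3′ ends were compared with blastn 2.17.0.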

Additional observations from a re-analysis of the deposited data

Results flagged for a closer look

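Of 18 checks of a member in 1 genotype for a library far from the others, 4 stood out, and chance alone marks about 1 group in 20. In KO 2 Mt1 had a log2 value of 7.22, against 10.18 in the next knockout library, and Mt2 had 5.87, against 8.97. Prdx2 in the same library had 5.73, against 6.51. In WT 7 Txn1 had 4.15, against 5.13 in the next WT library. WT 7 and KO 2 also had the most listed genes without a read, 346 and 320.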

How the results depend on the processing

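No gene was called under any of 13 other settings or with any 1 library left out. Over the 13 settings, 380 to 919 genes had an unadjusted p under 0.05. The setting without a filter repeats the main fit, because the filter removed 0 genes. No member passed under any setting or with any library left out. The log2 difference changed sign with sample weights for Gpx3 (0.012) and Prdx2 (0.032) and without WT 7, KO 2 and KO 3 for Prdx2 (0.076). Over the 12 libraries of runs it changed sign for Sod2 (-0.27), Gpx3 (0.061) and Txn1 (-0.22), and with a run term for Sod2 (-0.42), Txn1 (-0.27), Mt1 (-0.23) and Mt2 (-0.15). The cause was not tested. With 1 library left out, the difference ran from -0.25 to -0.079 for Sod1, 0.016 to 0.34 for Sod2, -0.13 to 0.11 for Gpx3, 0.13 to 0.65 for Gpx4, -0.11 to 0.073 for Prdx2, -0.028 to 0.25 for Txn1, 0.023 to 0.54 for Mt1, 0.23 to 0.79 for Mt2 and 0.43 to 0.90 for Txnip. Gpx4 was not tested under the filter of log2 above 3.

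Of the Txnip relations, 1 passed by rho and 1 without WT 7, KO 2 and KO 3 (Rgs16 in both), and 0 with any 1 library left out. The sign of r changed for Ucn3 on residuals after the genotype means (0.0020), with quantile normalization for G6pc2 (0.076), Pkm (0.019) and Ucn3 (0.019), without those 3 libraries for Pkm (0.046) and Ucn3 (0.10), and without KO 4 and WT 6 for Tkt (0.12). With 1 library left out, r ran from -0.25 to 0.018 for Tkt and from -0.017 to 0.32 for Gpd1. Of the member pairs, 4 passed by rho, 1 without the 3 libraries and 2 to 8 with 1 library left out. Of the Mt1 relations, 0 passed without the 3 libraries and 0 to 6 with 1 library left out, 0 without KO 2 and 3 without WT 4. The labels give no replicate numbers, so samples were matched only through the run term above. Depth limits Gpx4, at 0 to 16 reads, and Rgs16, at 0 to 51.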

Other observations

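Among 3371 genes with a mean log2 value of at least 5, those most like Txnip over the 18 libraries were Rell1 (r = 0.83), Ctbp1, which encodes a transcriptional corepressor that binds NADH (0.79), Vapb, an anchor of the endoplasmic reticulum at membrane contacts (0.75), Auh, an enzyme of leucine breakdown in mitochondria (0.74) and Sez6l (0.74). Within genotypes, r of Rell1 was 0.97 in knockout and 0.60 in WT. These values are a description of libraries that share depth and scaling, with no test.

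Beside Mt2 (r = 0.99), the genes most like Mt1 among 3370 were Srm, the spermidine synthase gene (0.86), Cad, which encodes the enzyme that starts pyrimidine synthesis (0.85), Nme1, a nucleoside diphosphate kinase gene (0.84) and Srp14, a subunit of the signal recognition particle (0.84). Within knockout r ran from 0.90 for Srp14 to 0.95 for Srm, and within WT from 0.66 for Srp14 to 0.79 for Nme1.

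Of the genes whose promoter windows held the letters of the carbohydrate response element, 8 are in the table, namely Txnip, Rbbp4, A430005L14Rik, Man2b2, Fem1b, Irak1bp1, Fnip1 and Nfkb2.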
